A study of Saccharomyces cerevisiae with 6 samples.

Results

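The comparison described here is that of the 2 myo1Δ strains of the study with each other, YJR13 (mating type MATa) against YJR6 (MATα). MYO1 encodes the heavy chain of myosin II, the motor of the contractile ring that divides mother and bud. Both strains lack it. Of the 12 channel files of the series, each holding the RNA of 1 strain on 1 array, the 6 files of the mutants were taken by their labels, 3 of YJR13 and 3 of YJR6.

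In the study, each of 6 Agilent oligonucleotide arrays received a mutant RNA in one dye and a wild type RNA in the other, and mutants were compared with their wild types. YJR6 (MATα trp1 ura3 leu2 his3 ADE+ ARG cyhR myo1Δ::HIS5+) was made by deleting MYO1 in MGD353-46D (MATα). YJR13 (MATa trp1 ura3 leu2-3 his3 ADE+ ARG cyhR myo1Δ::HIS5+) and the wild type YJR12 (MATα) were haploid segregants of a cross between YJR6 and BY4741, a MATa laboratory strain with deletions in HIS3, LEU2, MET15 and URA3. YJR13 is thus 1 segregant, and mating type, other alleles that it inherited from BY4741 and the strain as such cannot be told apart in its comparison with YJR6. Cultures grew overnight at 26°C. The labels place YJR6 in histidine dropout medium, and the text of the study names that medium for its mutants and complete synthetic medium for its wild types, so that medium and MYO1 genotype cannot be told apart between mutants and wild types.

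Replicates 1 to 3 are YJR13 and replicates 4 to 6 are YJR6. Replicates 2 and 5 carried Cy3 and the others Cy5. The level of a gene is its log2 normalized signal, set on a common scale among channels of the same dye, so that levels are best compared between strains within a dye. The difference is YJR13 minus YJR6 on this log2 scale, with its standard error (SE), from a limma fit over all genes with the dye as a block. By the names of the scanned images, arrays 1 and 2 (both YJR13) shared slide 1 and arrays 5 and 6 (both YJR6) slide 3. Arrays 3 and 4 lay on slide 2, the only slide with both mutants. The difference between the mutant channels of arrays 3 and 4 is called the within-slide difference. Where the slide is a fixed block, the strain difference of a gene measured in both channels is this same value, 1 channel against 1. The wild type channels were normalized among themselves and their levels are given side by side, with no test between the wild types. They enter a test only in the difference of differences, which sets the difference between the mutants against that between the wild types. The methods of the study state that the cultures were biological replicates.

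The median gene gave 1.56 to 2.16 times the local background in the mutant channels, and 96.0% to 99.2% of genes lay above the value below which 95% of negative control spots fell. Levels correlated between the mutant channels at r of 0.844 to 0.951 across genes, which are not independent replicates. Replicates 3 and 5 were the least alike and replicates 4 and 5 the most alike. YJR13 replicate 2 correlated at 0.929 and 0.924 with YJR6 replicates 5 and 4. Its values were lower with YJR13 replicates 1 and 3 (0.916 and 0.884) and with YJR6 replicate 6 (0.883). The channels thus did not group by strain alone. MYO1 lay between 5.71 and 5.89 in all 6 mutant channels, at 1.02 to 1.12 times background, where the negative control limit was also 1.02 to 1.12. It exceeded the limit of its own channel in replicates 2, 3 and 4, by most in replicate 4 (1.06 against 1.04). It was 1.40 to 4.78 times background in the wild types. HIS3, deleted in both mutants, lay between 5.70 and 5.80.

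Of 6255 genes tested, 10 were higher and 2 lower in YJR13 at an adjusted p of 0.05 (limma), which is 0.160% and 0.0320% of the genes. The 10 were the 4 copies of the asparaginase gene ASP3, the phosphate transporter gene PHO84, the pheromone receptor gene STE2 and the mitochondrial genes OLI1, COB, AI1 and AI2. The 2 were LEU2, of leucine synthesis, and PDR5, a drug exporter gene. At an unadjusted p of 0.05, 303 genes were higher and 278 lower, 4.84% and 4.44% of those tested. The 4 ASP3 copies were called whichever replicate was left out. PHO84 was called without replicate 1 and lost its call when any other replicate was left out. OLI1 was called without replicates 2, 3 and 5 and lost its call without 4 or 6, and has no value without 1. The calls of STE2, COB, AI1, AI2, PDR5 and LEU2 were lost when any 1 of the 6 replicates was left out, while their differences kept their size. Without replicate 3 the calls were joined by AI5_ALPHA and without replicate 4 by YIL082W, a retrotransposon gene. With the slide as a fixed block, which leaves 1 residual degree of freedom, 0 genes passed the adjusted p and 706 reached an unadjusted p of 0.05 (limma). The split of 10 higher and 2 lower was 13 and 5 with median normalization, 8 and 1 with quantile normalization over both dyes and 7 and 0 with loess and Aquantile.

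**Figure D1:**
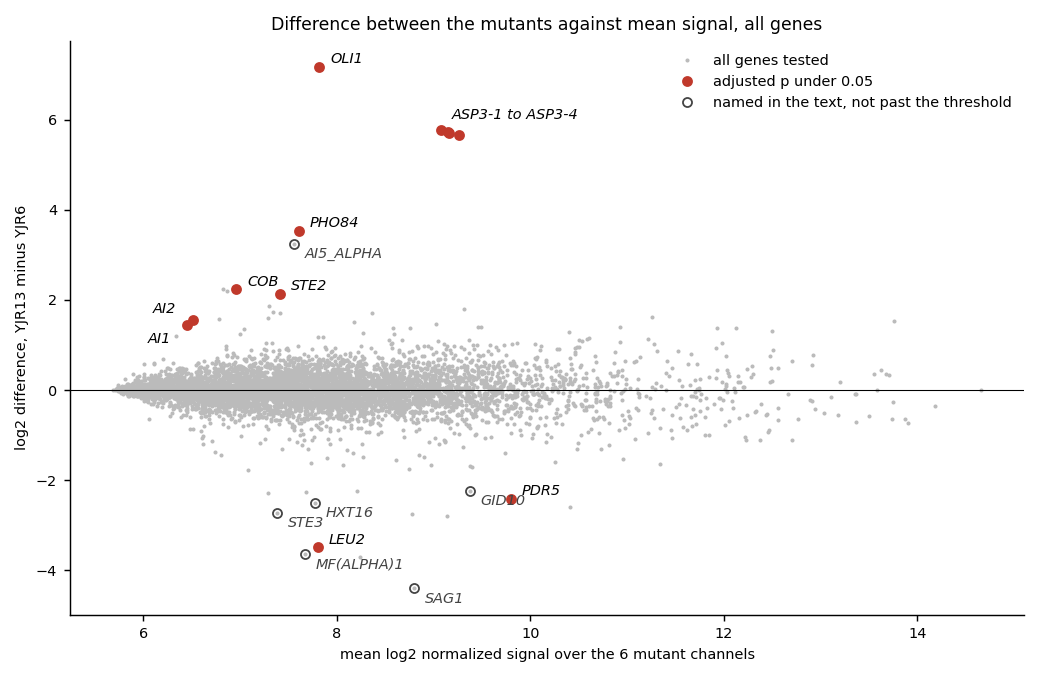
Log2 difference of YJR13 minus YJR6 (vertical axis) against the mean log2 normalized signal over the 6 mutant channels (horizontal axis), 1 point per gene. Filled red points are the 12 genes at an adjusted p under 0.05, and open circles are 6 of the genes named in the text that did not pass. OLI1 and the ASP3 copies lie above 5.6 and SAG1 lies lowest at -4.40.

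ASP3-1, ASP3-2, ASP3-3 and ASP3-4, on chromosome XII, encode the secreted asparaginase that yeast uses to take nitrogen from asparagine outside the cell. Their sequences are close enough that a probe may bind RNA of another copy, so they are not 4 independent results. ASP3-1 had levels of 12.43, 11.58 and 12.04 in YJR13 and of 6.29, 6.05 and 6.53 in YJR6. All YJR13 channels were high and all YJR6 channels low, with a wide gap in either dye. The difference was 5.72 (SE 0.19, adjusted p = 0.000308 from limma, 52.9-fold), and 5.75 within the slide. The other copies differed by 5.66 to 5.77. In the wild types ASP3-1 was low in YJR12 (6.12, 6.33 and 6.06) and in MGD353-46D (6.03, 6.41 and 6.01).

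The files also hold 3 short reading frames that lie among the ASP3 copies, named here after their values were seen. YLR156W, YLR159W and YLR161W differed by 1.73, 1.60 and 1.86 in the same direction, and their adjusted p was 0.472, 0.497 and 0.437. The YJR13 replicate 3 channel was the highest in all 3. ASP1, the gene for the cytosolic asparaginase on chromosome IV, differed by 0.64 (SE 0.15, adjusted p = 0.375).

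**Figure D2:**
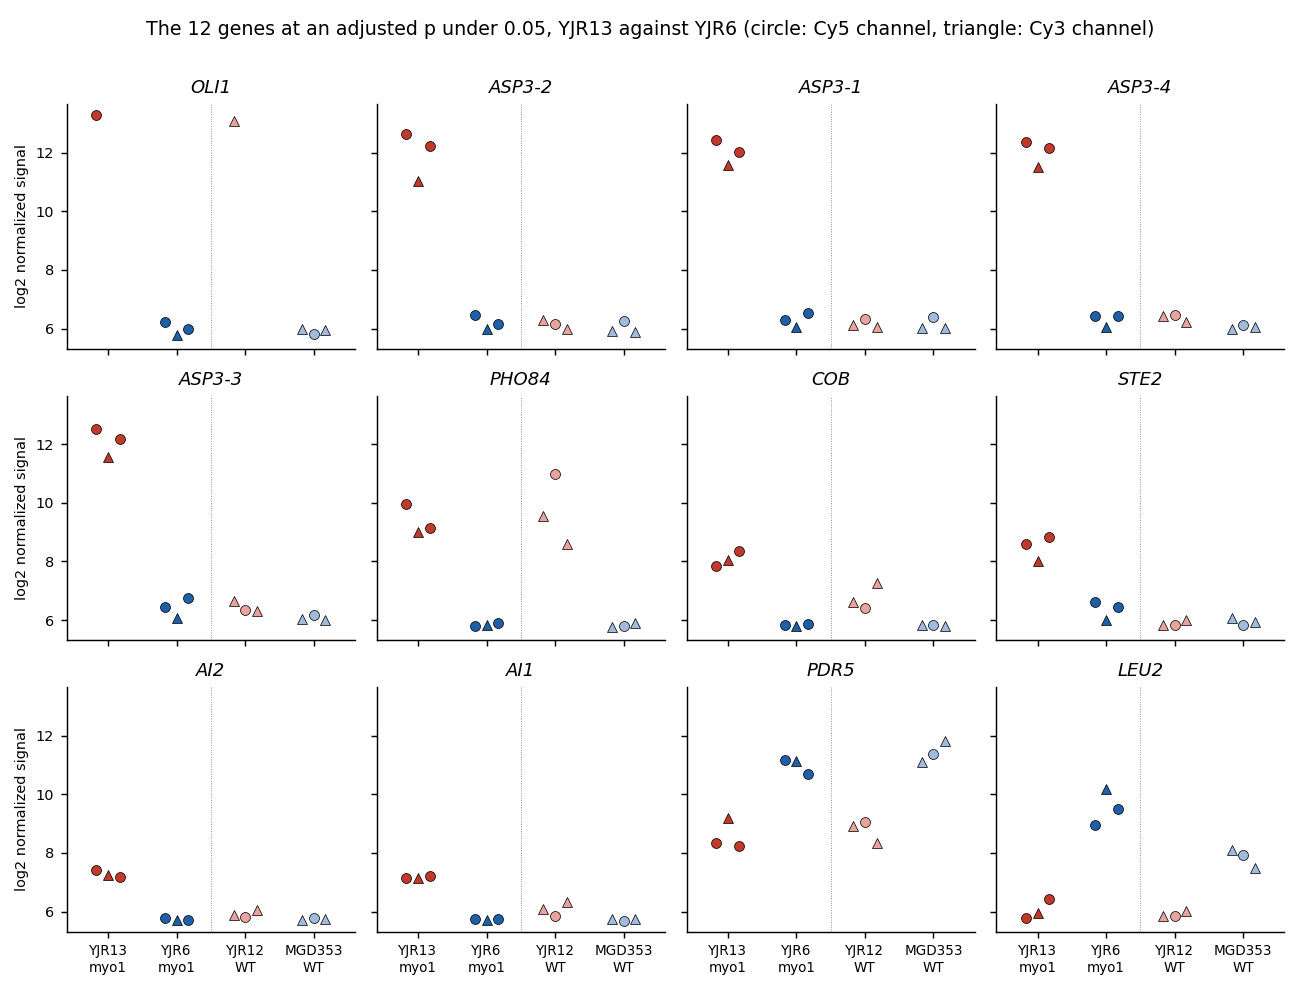
Log2 normalized signal (vertical axis) of the 12 called genes in each channel of YJR13, YJR6, YJR12 and MGD353-46D (horizontal axis), circles for Cy5 and triangles for Cy3. ASP3 copies were high in YJR13 alone, PHO84 was high in YJR13 and YJR12, PDR5 was high in YJR6 and MGD353-46D, and OLI1 has 1 YJR13 value because its spot was marked poor on arrays 2 and 3.

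Mating type is set by the MAT locus: MATa cells make a-factor and carry the receptor for α-factor, and MATα cells the reverse. The labels give YJR13 as MATa, and YJR6 and both wild types as MATα. STE2, the α-factor receptor, had levels of 8.60, 8.02 and 8.84 in YJR13 and of 6.61, 5.99 and 6.44 in YJR6. It was higher in every YJR13 channel, with a difference of 2.14 (SE 0.16, adjusted p = 0.0161) and of 2.23 within the slide. The wild types lay at 5.82 to 6.06. Of the 7 a-specific genes fixed as a list, 1 passed an adjusted p of 0.05, 6 were higher at an unadjusted p of 0.05 (background 4.84%), and all 7 had a difference above 0, with a median of 1.50 against -0.00188 for all genes.

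The a-factor genes MFA1 and MFA2 differed by 1.70 (SE 0.30) and 1.58 (SE 0.32), with adjusted p of 0.288 and 0.352. STE6, the exporter of a-factor, differed by 1.50 (SE 0.20, adjusted p = 0.146), with levels of 9.01, 8.46 and 9.32 in YJR13 and of 7.44, 6.92 and 7.93 in YJR6. No YJR6 channel reached the lowest YJR13 channel. BAR1, the protease that degrades α-factor, was at 8.67 and 8.08 in the Cy5 channels of YJR13 but at 6.40 in the Cy3 channel, against 6.11 to 6.52 in YJR6. AGA2, the binding subunit of a-agglutinin, differed by 0.23 and its strains overlapped in Cy5.

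The 5 α-specific genes were all lower in YJR13 in value, with a median difference of -2.72, and 3 of them reached an unadjusted p of 0.05 (background 4.44%) while 0 passed the adjusted p (limma). SAG1, which encodes α-agglutinin, had levels of 6.57, 6.49 and 6.74 in YJR13 and of 9.78, 10.34 and 12.89 in YJR6. The groups were far apart, but YJR6 replicate 6 lay well above the other YJR6 channel of its dye. The difference was -4.40 (SE 0.78, adjusted p = 0.288). MF(ALPHA)1, the main α-factor gene, had levels of 5.91, 5.80 and 5.84 in YJR13 and of 8.06, 9.23 and 11.18 in YJR6 (difference -3.64, SE 0.77, adjusted p = 0.352). The YJR13 values were at 1.04 to 1.10 times background. STE3, the receptor for a-factor, showed the same order, with 7.70, 8.42 and 10.09 in YJR6 and 5.88 to 6.22 in YJR13. Replicate 6 was the highest of the YJR6 channels in all 5 genes. Without it the difference was -3.43 for SAG1, -2.72 for MF(ALPHA)1 and -2.01 for STE3, and the list median was -2.01.

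HMRA1, which shares its sequence with the a1 gene of MATa, was at 7.67, 7.74 and 8.45 in YJR13 and at 5.74 to 5.79 in YJR6. It was above background in 3 of 3 YJR13 and 1 of 3 YJR6 channels, and its difference of 2.19 (SE 0.24) missed the threshold with an adjusted p of 0.0581. The probes of the silent and active copies of α1 and α2 cannot be told apart where the copies are identical. MATALPHA2 had levels of 7.67, 7.87 and 8.06 in YJR13 and of 9.44, 8.99 and 10.45 in YJR6 (difference -1.76, SE 0.35, adjusted p = 0.352). The probes named HMLALPHA2 and HMRA2 differed by -1.48 and -1.43.

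**Figure D3:**
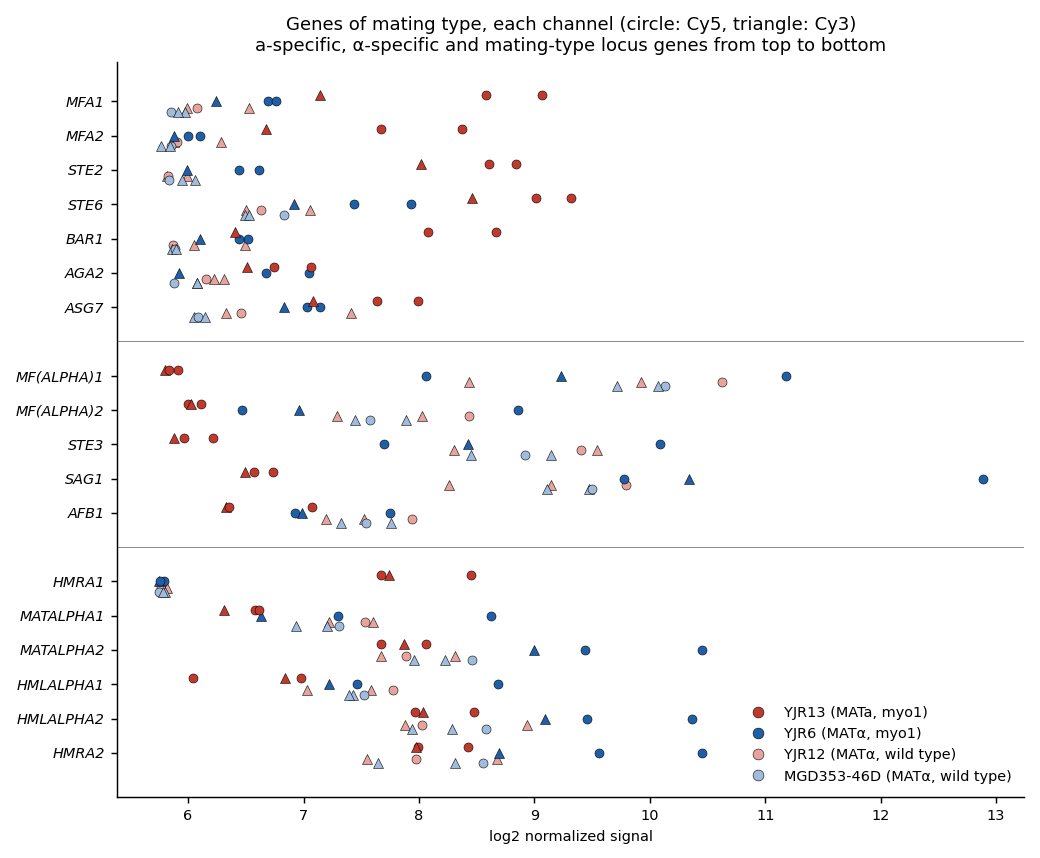
Log2 normalized signal (horizontal axis) of 7 a-specific, 5 α-specific and 6 mating-type locus genes (vertical axis) in each channel, circles for Cy5 and triangles for Cy3. YJR13 (dark red) lies to the right in most a-specific genes, but not in every channel of AGA2 and BAR1. It lies to the left in most α-specific genes, where the 3 YJR6 channels (dark blue) spread most widely.

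Genes of the pheromone response shared by both mating types were lower in value in YJR13 in 27 of 35 cases. Of these 35 haploid and pheromone response genes, 0 passed the adjusted p, and 7 were lower and 0 higher in YJR13 at an unadjusted p of 0.05 (limma, background 4.44% lower and 4.84% higher), with a median difference of -0.33 (wild types -0.01). FUS1, a membrane protein of cell fusion, had levels of 7.11, 6.22 and 7.01 in YJR13 and of 7.96, 7.82 and 8.50 in YJR6 (difference -1.31, SE 0.21, adjusted p = 0.277). The strains did not overlap in either dye. AGA1, the anchor subunit of a-agglutinin, differed by -1.62 (SE 0.35), PRM2 by -1.03 (SE 0.19) and FIG2, an adhesin of mating, by -0.87 (SE 0.18). Over the alternative settings the median of the list lay between -0.59 and -0.09, the latter with the slide as a block, and without YJR6 replicates 6 and 4 in turn it was -0.17 and -0.50.

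The mitochondrial genome encodes subunits of the respiratory chain and the ATP synthase, and its introns encode splicing and endonuclease proteins. Of the 12 called genes 4 were mitochondrial, where the array holds 23 reading frames of this genome. COB, cytochrome b, had levels of 7.83, 8.04 and 8.35 in YJR13 and of 5.84, 5.81 and 5.88 in YJR6, with no overlap. The difference was 2.23 (SE 0.19, adjusted p = 0.023) and 2.51 within the slide. In the wild types COB was at 6.41 to 7.26 in YJR12 and at 5.81 to 5.83 in MGD353-46D.

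AI1 and AI2, maturases encoded in introns of COX1, were above background in 3 of 3 YJR13 channels and in 0 of 3 YJR6 channels. AI1 had levels of 7.16, 7.15 and 7.22 in YJR13 against 5.75, 5.70 and 5.74 in YJR6, which is at least 2.61-fold higher (fitted difference 1.44, SE 0.14, adjusted p = 0.0362). AI2 was at least 2.82-fold higher (adjusted p = 0.0362). These bounds compare strain means and do not allow for the spread between channels. In them the dim strain was set, channel by channel, to the higher of its own level and the lowest level among genes above background. AI4, an endonuclease of another COX1 intron, had a bound of 4.45-fold on its means, but did not pass (adjusted p = 0.185 in limma). Its log2 difference was 2.57 in Cy5 and 1.57 in Cy3. AI5_ALPHA, also of a COX1 intron, differed by 3.25 (adjusted p = 0.0538), with levels of 9.62, 9.56 and 8.38 against 5.93 to 5.95.

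Of all genes 6 were above background in every YJR13 channel and in no YJR6 channel, 0.0959% of those tested, and all 6 were mitochondrial (AI1, AI2, AI3, AI4, AI5_BETA and ATP8). The AI frames overlap COX1 in the reference, so the 6 are not independent results. In the opposite direction there were 2 genes, PRM6 and YHL042W, both nuclear. OLI1, subunit c of the ATP synthase, gave 26.5 times background in YJR13 on array 1 (level 13.27), where it was usable, and 217 and 147 times on arrays 2 and 3, where its spot was marked poor and left out. In YJR6 it was 1.06 to 1.18 times background (levels 5.79 to 6.22). The fitted difference of 7.17 (SE 0.28, adjusted p = 0.0219) therefore rests on 1 YJR13 channel. On array 1 YJR12 was as bright as YJR13, at 13.08. It gave 39.2 and 81.0 times background on arrays 2 and 3, where the spot was marked poor. MGD353-46D was at 5.81 to 5.99.

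Other mitochondrial genes showed less. ATP6 and COX1 differed by 0.58 and 0.47, with adjusted p of 0.512 and 0.516. COX2, COX3 and VAR1, a ribosomal protein gene, differed by 0.05 to 0.14 but lay near background in both strains. COX2 and VAR1 were above it in 1 of 3 YJR13 and 0 of 3 YJR6 channels, and COX3 in 3 and 1. Their small values therefore do not show that these genes differed less. Of the 23 reading frames 9 were higher and 0 lower in YJR13 at an unadjusted p of 0.05 (limma, background 4.84% higher). Their median difference was 0.24. Frames that overlap, such as those of COX1 and its introns, are not independent in this count. The nuclear genes of the TCA cycle and respiratory chain had a median difference of 0.13, with 3 of 43 higher and 0 lower at that p and 0 called (limma), and the median lay between -0.02, without YJR13 replicate 3, and 0.29, without YJR13 replicate 1. In RNA from whole cultures, fewer mitochondrial genomes per cell, fewer cells that hold them and less RNA per genome cannot be told apart. Neither these nor other causes were tested.

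PHO84, the high-affinity phosphate transporter, had levels of 9.96, 9.00 and 9.15 in YJR13 and of 5.81, 5.82 and 5.89 in YJR6. Every YJR13 channel was far above every YJR6 channel, with a difference of 3.53 (SE 0.26, adjusted p = 0.0161, 11.5-fold). The wild types showed the same contrast, with YJR12 at 8.61 to 10.97 and MGD353-46D at 5.78 to 5.88, and the difference between mutants less that between wild types was -0.36 (SE 0.53, adjusted p = 0.932). Of the 17 phosphate regulon genes all had a difference above 0, 7 were higher at an unadjusted p of 0.05 (background 4.84%) and PHO84 alone passed (background 0.160%). The median was 0.55, and 0.79 between the wild types. PHO12, an acid phosphatase, differed by 1.26 (SE 0.24), and VTC1, of vacuolar polyphosphate synthesis, by 1.04 (SE 0.25).

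LEU2, the isopropylmalate dehydrogenase of leucine synthesis, had levels of 5.79, 5.94 and 6.44 in YJR13 and of 8.95, 10.18 and 9.51 in YJR6. All YJR6 channels were higher, with a difference of -3.49 (SE 0.33, adjusted p = 0.0362) and of -2.51 within the slide. YJR12 was low too (5.86 to 6.04), and MGD353-46D was at 7.49 to 8.09. All 4 strains are leu2 by their genotypes. LEU1, the preceding step of the pathway, differed by -0.97 (adjusted p = 0.512), a gene named after its value was seen.

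PDR5, an exporter of many drugs, had levels of 8.33, 9.21 and 8.25 in YJR13 and of 11.17, 11.15 and 10.68 in YJR6. The difference was -2.41 (SE 0.23, adjusted p = 0.0362), and -2.92 within the slide. The wild types differed alike, at 8.33 to 9.06 in YJR12 and 11.11 to 11.81 in MGD353-46D, with a difference of differences of 0.26 (SE 0.37). A set of 7 other genes known as targets of the drug resistance factor Pdr1 was looked at after the values were seen and has no test. RSB1, of sphingoid base resistance, differed by -1.66, PDR15 by -1.15 and YOR1 by -1.05. SNQ2, PDR10 and ICT1 lay between -0.39 and -0.06, and TPO1, a polyamine transporter, at 0.42.

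The next question was whether the difference between mutants was that already present between the wild types. The difference of differences passed an adjusted p of 0.05 for 4 of 6255 genes (0.0639%), the ASP3 copies. At an unadjusted p of 0.05 there were 459 genes (7.34%). For ASP3-1 it was 5.71 (SE 0.21, adjusted p = 0.0012). STE2 was next in line at 2.21 (SE 0.19, adjusted p = 0.0589), while its wild types, both MATα, differed by -0.07. For COB it was 1.30 (SE 0.22). For OLI1 it was 0.07 (SE 0.36), a value that rests on array 1 alone for YJR13 and YJR12. LYS9, of lysine synthesis, was higher in YJR13 than in YJR6 by 1.12 but lower in YJR12 than in MGD353-46D by a value of -2.84, which gave 3.96 (SE 0.55, adjusted p = 0.328).

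Among the genes that came closest without passing, several were lower in YJR13. GID10, a substrate receptor of a ubiquitin ligase, had levels of 8.35, 8.81 and 7.61 in YJR13 and of 10.85, 10.21 and 10.42 in YJR6, against 5.79 to 6.26 in the wild types (difference -2.24, SE 0.35, adjusted p = 0.271). ESA1, the catalytic subunit of the NuA4 histone acetyltransferase, differed by -1.09 (SE 0.15, adjusted p = 0.147). YPL278C and YPL277C, neighbors near an end of chromosome XVI, differed by -1.55 and -1.39. Cross-hybridization between them was not tested. MET17, the homocysteine synthase also called MET15, was at 6.19, 6.08 and 6.30 in YJR13 and at 7.48, 7.91 and 8.51 in YJR6, below the 8.95 to 9.49 of the wild types (difference -1.78, SE 0.29, adjusted p = 0.277). MUP1, the methionine permease, lay the other way with a difference of 1.80 (SE 0.29, adjusted p = 0.277).

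Genes from CLD1 to YGR122W on chromosome VII had lower values in YJR13 than in YJR6 side by side. This run was found after the values were seen and is so given without a test. The run holds 11 genes of the array in their order in the R64 reference. Of these, 10 had differences between -1.32 and -0.57, with a median of -0.94, and 0 passed the adjusted p (10 lower at an unadjusted p of 0.05 in limma). RPS23A, which has a second copy of the same protein in RPS23B elsewhere, differed by -0.06. The 20 genes that flank it, 10 on each side, had a median difference of 0.00330, and CLB6 and PPT1, which border the run, differed by 0.03 and 0.22.

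Within the run, DAM1, of the ring that ties kinetochores to microtubules, had levels of 7.53, 7.41 and 7.51 in YJR13 and of 8.37, 8.47 and 8.88 in YJR6. YGR117C was at 7.93, 7.33 and 7.07 against 8.79, 8.44 and 9.06. In all 10 genes, with RPS23A set aside, the strains did not overlap in either dye, where 11.1% of all genes were lower in this way. The run was picked from these differences, so this count and the window values below describe it and do not test it. The wild types did not share the lower values, with differences of -0.37 to 0.72 and a median of -0.01. Against the wild type of the same array, the 10 genes had medians of 0.62, 0.34 and 0.62 in YJR13. In YJR6 they had 1.94, 0.98 and 1.67. The 20 flanking genes had 0.82, 0.11 and 0.61 in YJR13 and 0.89, 0.05 and 0.48 in YJR6. The run thus stood above its flanks on the YJR6 arrays and near them on the YJR13 arrays, which was not tested. The median difference of the 10 genes was -1.02 in Cy5, -0.81 in Cy3 and -0.92 within the slide. Among 2857 windows of 15 neighboring genes with a signal above the median, the windows at this place had the lowest median difference, at -0.66, and the next place, on chromosome XIV, had -0.43.

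**Figure D4:**
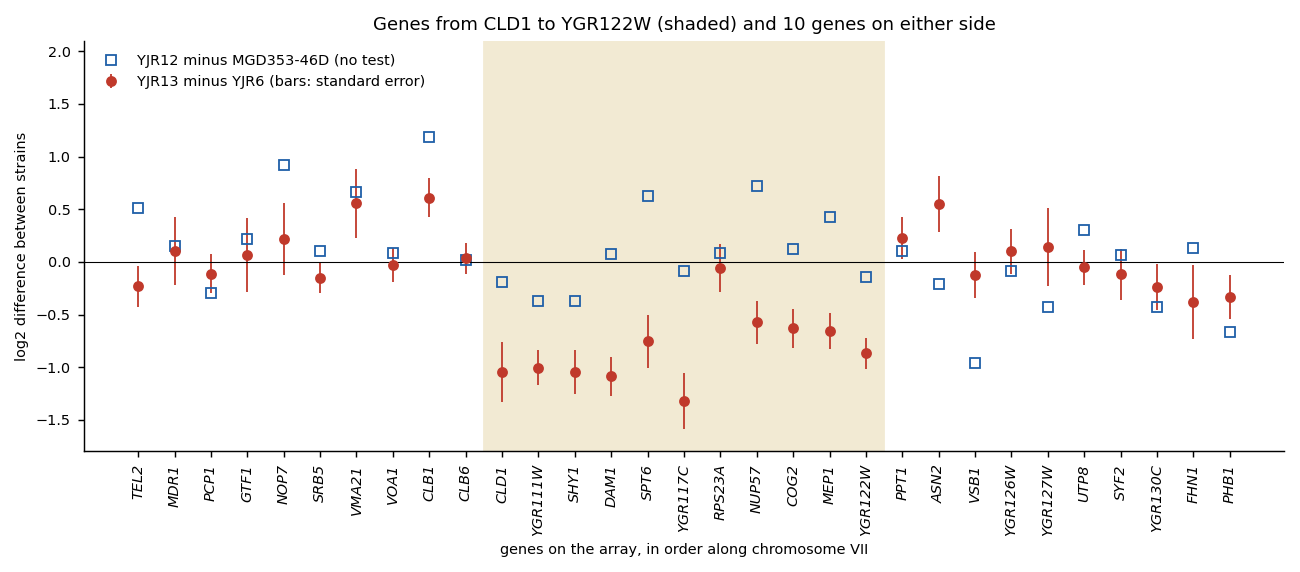
Log2 difference between strains (vertical axis) for genes in their order along chromosome VII (horizontal axis), with YJR13 minus YJR6 as filled points with standard errors and YJR12 minus MGD353-46D as open squares. In the shaded run 10 of 11 genes lie at -0.57 or below in the mutants, and the wild types lie between -0.37 and 0.72.

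Ribosomal protein genes had a difference above 0 in 127 of 138 cases, with a median difference of 0.46 against -0.00188 for all genes. At an unadjusted p of 0.05, 43 were higher (background 4.84%) and 0 lower, and 0 passed the adjusted p (limma). The median level of the list was 9.52 and 8.95 in the Cy5 channels of YJR13 and 8.70 and 9.01 in those of YJR6, so that these overlapped, and it was 8.61 against 8.10 in Cy3. RPL34A and RPL34B, of the large subunit, differed by 1.00 (SE 0.19) and 0.98 (SE 0.17), and RPS29B, of the small subunit, by 0.79 (SE 0.15). Many of these genes come in near-identical pairs that may share signal. The wild types had a median of 0.17, and over the alternative settings the median of the mutants lay between 0.27, without YJR13 replicate 1, and 0.63, without YJR13 replicate 3.

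General stress response genes lay on the other side. Of 50 such genes 41 had a difference below 0, 8 were lower and 0 higher at an unadjusted p of 0.05 (background 4.44% lower), and 0 passed the adjusted p (limma). Their median was -0.38, and -0.26 between the wild types. GLG1, which primes glycogen synthesis, had levels of 9.17, 9.33 and 9.49 in YJR13 and of 10.42, 10.15 and 10.25 in YJR6 (difference -0.94, SE 0.17, adjusted p = 0.298), with no overlap. DAK1, a dihydroxyacetone kinase, differed by -0.80 (SE 0.17), the repressor gene XBP1 by -0.91 (SE 0.20) and the transketolase gene TKL2 by -1.30 (SE 0.30). HSP82, the inducible Hsp90 chaperone, which was named after its value was seen, differed by -1.12 (adjusted p = 0.288).

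Hexose transporter genes had a median of -0.72 with 17 of 19 below 0, and the wild types a median of 0.05. At an unadjusted p of 0.05, 5 were lower (background 4.44%). The median level of the list was 10.14, 8.52 and 7.39 in YJR6 and 7.74, 7.09 and 7.08 in YJR13, and without YJR6 replicate 4 the median difference was -0.42. HXT16 had levels of 6.42, 7.30 and 5.84 in YJR13 and of 10.69, 9.00 and 7.39 in YJR6 (difference -2.50, SE 0.85, adjusted p = 0.512). The strains did not overlap, but the 2 Cy5 channels of YJR6 were far apart. HXT13 and HXT15 differed by -2.28 and -2.26, and since HXT13, HXT15, HXT16 and HXT17 are close relatives in sequence, their signals may be shared. HXT3, a low-affinity transporter, differed by -0.66. The maltose genes MAL31 and MAL12 differed by -0.85 and -0.74, short of the threshold.

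Genes of amino acid synthesis under Gcn4 had a median of 0.34, with 11 of 49 higher (background 4.84%) and 1 lower (background 4.44%) at the same p, and those of sulfate assimilation and methionine 0.41, with 7 of 27 higher and 1 lower. The wild types had medians of -0.06 and 0.00. CYS4, of cysteine synthesis, differed by 0.98 (SE 0.23) and LYS20, of lysine synthesis, by 0.95 (SE 0.26). The histone H2A genes HTA1 and HTA2 differed by 0.94 (SE 0.19) and 0.85 (SE 0.15), with adjusted p of 0.352 and 0.288 (limma). Their differences between the wild types were similar (0.93 and 1.00). The 10 histone genes of the list had a median difference of -0.05, with 4 above 0 and 6 below. The PAU family of stress-induced cell wall genes was below 0 in 23 of 24 members with a median of -0.32, and its members may share signal. With the slide as a fixed block, which rests on the within-slide difference, the median was -0.04, with 11 of 24 members above 0.

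Genes that act near MYO1 in division gave small differences. The 23 genes of septins, contractile ring and bud neck had a median of 0.08, with differences between -0.31 and 0.53 and 0 genes past an unadjusted p of 0.05 or called in limma. The 35 cell wall and cell integrity genes spread more widely, from -0.55 to 1.37, with a median of 0.08 (wild types -0.44). At that p 1 was higher (CIS3, 0.84) and 1 lower (ROM1, -0.44). Glycolysis genes had a median of 0.33 in the mutants and -0.50 between the wild types, with a spread between replicates in which 0 of 23 reached an unadjusted p of 0.05 (limma). Without YJR6 replicate 4 the median was 0.05, with 12 of 23 above 0, without YJR13 replicate 3 it was 0.15, without YJR6 replicate 6 it was 0.58, and with the slide as a block it was 1.11.

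**Figure D5:**
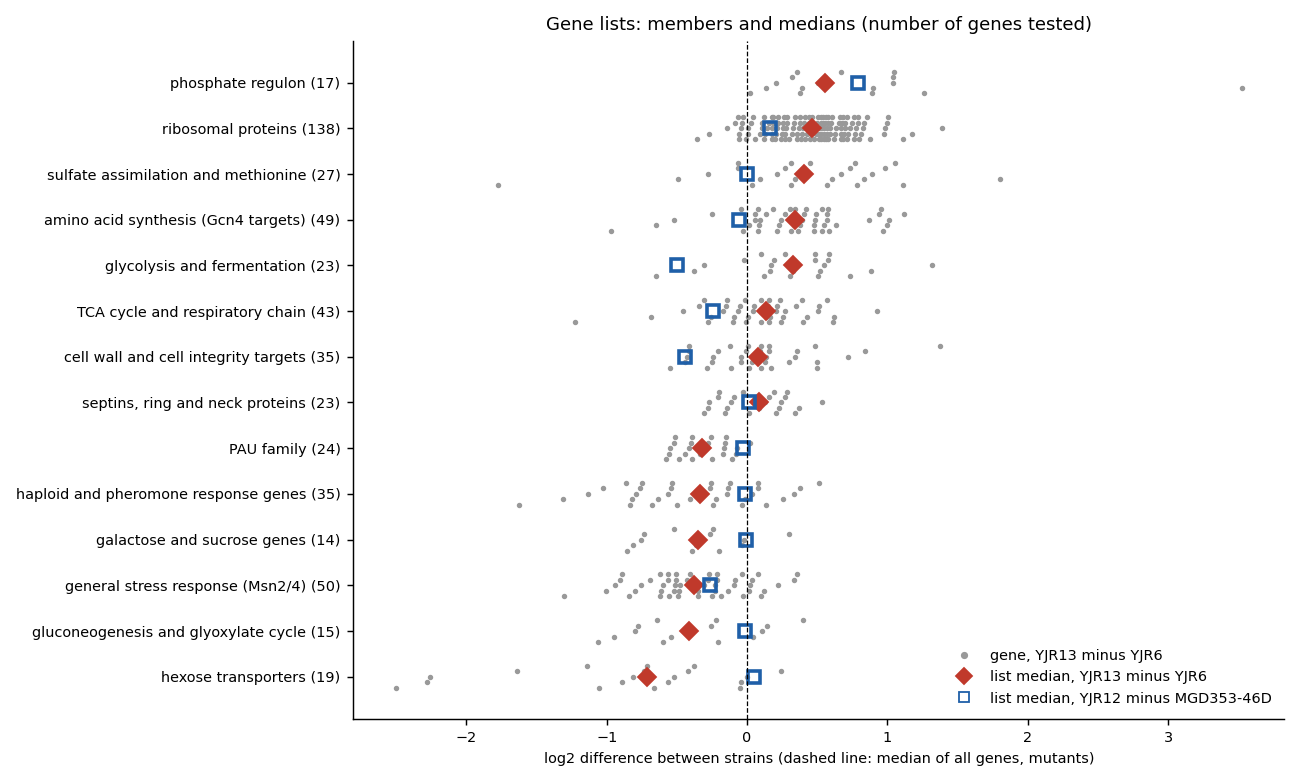
Log2 difference between strains (horizontal axis) for the members of 14 gene lists (vertical axis, number of genes tested in brackets). Grey points are genes and red diamonds list medians of YJR13 minus YJR6, and open blue squares are list medians of YJR12 minus MGD353-46D. The red medians run from 0.55 in the phosphate regulon to -0.72 in hexose transporters.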

How the data were processed

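Each array was scanned in both dyes and quantified by the authors with ImaGene (version 6.0.0 per the file headers and 3.0 per the labels), and the mean signal and median background intensity of each spot were deposited. The deposited log2 ratios (Cy5 over Cy3) had been background corrected and lowess normalized by the authors with limma, and their rows follow the spot order of the files (r of 0.778 to 0.956 with the raw ratios). They served as an alternative only. No genome build was stated in the labels, headers or methods.

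Here the 6 mutant channels were corrected by normexp (offset 50) and quantile normalized within dye. Of 10807 spots per array 544 controls were left out, as were the 32 to 192 marked poor. Spots were averaged for 6256 genes, of which 5756 were named by RefSeq R64 and 500 kept the file's name. The linear model held strain and dye and was fitted in limma 3.58.1 (R 4.3.3) with moderated variances and Benjamini-Hochberg adjustment. Precision is limited by 3 arrays per strain. The fit was tested on simulated data.

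Members, gene lists and naming rules were chosen with earlier results of these data known. Named were all genes of the mating, ASP3 and strain marker lists, the 12 leading genes each way that lay the same way in both dyes, up to 4 genes of smallest p in each other list, and the leading differences of differences. Others are said to be named later. The alternatives covered background, normalization, filters, flags, covariates, thresholds and leaving out each array. Lists without a value in the text, and 1 withheld result, are not reported here.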

Additional observations from a re-analysis of the deposited data

Results flagged for a closer look

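The 4 ASP3 copies were marked because the difference between the mutants was not the difference between their wild types, by a limma test of the difference of differences over all genes. The value was 5.71 (SE 0.21, adjusted p = 0.0012) for ASP3-1, 5.64 (SE 0.24, adjusted p = 0.00172) for ASP3-2, 5.29 (SE 0.20, adjusted p = 0.0012) for ASP3-3 and 5.38 (SE 0.21, adjusted p = 0.0012) for ASP3-4. The adjusted p rose above 0.05 for all 4 copies with the slide as a fixed block (0.0705 to 0.0968) and with an intensity trend (0.203), and for ASP3-2, ASP3-3 and ASP3-4 with every flagged spot left out (0.0699), while the differences stayed between 5.29 and 5.73. The copies may share RNA on the array, so these are not independent. YJR13 and YJR6 were cohybridized with different wild types, so the 4 strains enter this value in fixed pairs.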

How the results depend on the processing

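With 10 genes higher, 2 lower and 4 differences of differences passing in limma as reported, the counts were 5 higher and 0 lower without background correction, 23, 11 and 13 when the normexp offset was 0, 17, 10 and 12 under plain subtraction, 5 lower and 7 differences of differences with median normalization, 1 lower with quantile normalization over both dyes, and 0 lower with loess and Aquantile. They were 6 higher among genes above the median signal, 4, 1 and 1 with every flagged spot left out, 1 lower without the dye term, 5 and 0 with array position added, 0, 0 and 0 with the slide as a fixed block (706 and 791 genes at an unadjusted p of 0.05), 5 and 0 in Cy5 alone, and 5 lower and 0 differences of differences with an intensity trend (478 at an unadjusted p of 0.05). They were 4 and 0 at an adjusted p of 0.01, and 69, 70 and 94 at an unadjusted p of 0.01. With each replicate left out in turn, 4 to 6 genes were higher and 0 to 1 lower, and 4 differences of differences passed each time. The cause of these changes was not tested. Among genes measured in all 6 mutant channels, an alternative chosen after seeing the data, 9 were higher and 2 lower.

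The 85 gene results had 2167 values under at most 26 of the 27 settings, since the deposited ratios were used for counts only. Of these values, 1937 kept their direction and side of the threshold, 113 lost the call, 117 gained it and 0 reversed. The genes were named largely from these same data, and every setting reuses the same arrays. Settings that changed only the threshold, the variance model or the genes tested could not change a direction. The lack of reversals is thus no independent support. The median difference of the ASP3 copies lay between 4.25 and 7.28. No paired analysis was possible because the strains compared share no replicate number. With the slide, which arrays 3 and 4 share, as a random block, 12 genes were higher, 2 lower and 5 differences of differences passed. Precision is limited by 3 arrays per strain and by signals near background, where the offset understates a difference.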
